A study of Mus musculus with 2 samples.

Results

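Solute carriers are membrane proteins that move nutrients, ions and metabolites into cells, out of them and between their organelles. The genes described here are those whose symbol has the form Slc, digits and a letter and that held at least 500 unique molecular identifiers (UMIs, each standing for 1 captured transcript molecule) summed over both libraries of the study, with Slc40a1 and Slc11a1 left out. This gave 135 of 32285 features. A total of 376 features had such a symbol, of which 80 held no UMI and 159 held at least 1 but fewer than 500. The members were thus chosen by their UMI total, which is given as a description only: the members just inside the threshold were Slc35d2 with 532 UMIs, Slc35d1 with 569 and Slc5a3 with 571, and just outside it lay Slc30a6 with 480, Slc37a4 with 470 and Slc35e2 with 405. Of the 135, 5 carry the symbol without being transporters: Slc9a3r1 and Slc9a3r2 encode scaffold proteins, Slc4a1ap an adaptor, and Slc7a6os and Slc36a3os lie opposite a transporter gene.

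The cells were CD45+ cells (CD45 is a surface protein of leukocytes) taken by magnetic sorting from hearts of wild type C57BL/6J males aged 8 weeks. One group had undergone splenectomy and the other sham surgery, and hearts of both groups were injured by closing the left anterior descending coronary artery for 60 min and then reperfused for 24 h, so that no uninjured heart was part of the comparison. Each group was 1 library of single cells, no source used here gives the number of animals behind a library, and the library whose title does not name splenectomy was taken as sham. With 1 library per group no test was possible, and all differences below describe these libraries, with exact intervals that cover counting error only.

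The libraries held 6210 (sham) and 5087 (splenectomy) cell barcodes with 53512625 and 48024013 UMIs, and 9 barcodes occurred in both. Filters kept 5838 and 4805 cells, in which the median UMI count was 4918.5 and 6984. Cells were clustered without the solute carrier genes, and clusters were named from marker genes, which gave 8 classes with at least 50 cells in each library. The neutrophil-like class held 2126 and 1501 cells (sham, splenectomy), the monocyte-like class 830 and 758, and the macrophage-like class 1302 and 892. Smaller classes were conventional dendritic cell-like (330 and 247), B cell-like (111 and 110), endothelial cell-like (109 and 110), nonclassical monocyte-like (105 and 60) and T cell-like (62 and 62). A cluster of 267 and 550 cells led by Inhba, Areg and Lif passed only 2 monocyte markers and stayed unnamed. Of the conventional dendritic cell-like cells, 84 formed a cluster led by the division genes Pclaf, Ube2c and Birc5. Endothelial cells do not belong to the sort and were present all the same. Levels are given as CPM, the UMIs of a gene among 1000000 UMIs of the class, sham before splenectomy unless stated. The members together made up 0.570% and 0.597% of all UMIs. Their summed level was highest among the 3 large classes in neutrophil-like cells, which had 7304 and 7585 CPM. Monocyte-like cells had 5513 and 5976 CPM of members and macrophage-like cells 5420 and 5636 CPM.

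Phagocytes call on these carriers for distinct tasks. Neutrophils hold few mitochondria, live largely on glycolysis and must export the lactate they make. Cystine uptake feeds glutathione, the main thiol that guards cells against the oxidants of a reperfused tissue, and macrophages that clear dying cells have to handle their lipids, sugars, nucleosides and metals.

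The most abundant of the members that differed between the libraries was Slc7a11 (ENSMUSG00000027737, chr3:49892526-50443614, minus strand, GRCm38), the transporting subunit of the cystine-glutamate exchanger. It is a known target of ATF4, a factor of the amino acid and stress response whose composite element reads TGATGNAA. The RefSeq promoter table (GRCm38.p6) holds this element on both strands just ahead of the start site. The stretch below is shown because it carries both matches, in capitals. It covers chr3:50443615-50443733, read 5′ to 3′ along the minus strand from 120 to 2 bases ahead of the RefSeq start.
Slc7a11 promoter: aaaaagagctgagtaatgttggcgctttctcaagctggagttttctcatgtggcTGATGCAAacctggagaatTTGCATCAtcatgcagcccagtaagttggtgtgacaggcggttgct
Zinc export by Slc30a1 is known to respond to the metal-sensing factor MTF-1, whose element can read TGCACNC. Slc30a1 (ENSMUSG00000037434) lies at chr1:191906767-191913247 on the plus strand. The Slc30a1 stretch covers chr1:191906661-191906766 on that strand, from 120 to 15 bases ahead of its RefSeq start. That start differs from the GENCODE gene start just given. The stretch has 1 match to TGCACNC on the opposite strand, in capitals. It is shown because Slc30a1 differed the other way from Slc7a11.
Slc30a1 promoter: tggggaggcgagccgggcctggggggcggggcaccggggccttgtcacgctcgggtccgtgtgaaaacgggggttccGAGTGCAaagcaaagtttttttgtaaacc

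Such matches describe letters only. Of the 135 members, 104 had a window of 250 bases before to 50 bases after the start in the table. Searched on both strands, TGATGNAA occurred in 5 of these (4.81%) and in 4.51% of the windows of 27025 genes. TGCACNC occurred in 19 members (18.3%) and in 14.2% of all genes. The core of the hypoxia response element, ACGTG, occurred in 41 members (39.4%) against 21.8% of all genes, and the core of the antioxidant response element, TGACNNNGC, in 27 (26%) against 14%. An AP-1 element, TGACTCA, was found in 5 members (4.81%) against 5.95%. TGACNNNGC and TGACTCA begin with the same letters and can overlap. The 27025 genes were not limited to those with at least 500 UMIs, as the members were, so these shares compare unlike sets of genes. The part of this difference between the sets in the motif shares was not tested.

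Which carriers set the cell classes apart was read in each library on its own. A member was taken to mark a class when its CPM was at least 2-fold that of every other class compared, in both libraries. At least 20 UMIs in each library were needed. The classes compared were the named ones with at least 50 cells in each library. Unnamed clusters and smaller classes, such as natural killer cell-like cells (67 and 34), were left out. This held for 14 of 135 members, 10.4% of them, and for 10.4% of all 8321 genes with 500 UMIs, so the members marked classes about as often as other genes. Neutrophil-like cells were marked by 9 members (background 3.99%), endothelial cell-like cells by 3 (background 3.52%) and macrophage-like cells by 2 (background 0.721%). None marked monocyte-like, nonclassical monocyte-like, dendritic, B or T cell-like cells. The class with the highest level was the same in both libraries for 98 of 135 members. Of 22 members that met the marking rule when the sham library was read alone, 16 were at least 2-fold above the next class in the splenectomy library too. These counts have no share over all genes beside them, so they describe the members only.

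The 9 neutrophil markers covered sugar, lactate, fatty acid and amino acid transport. Slc2a3, the high-affinity glucose transporter GLUT3, reached 93.2 and 79.8 CPM in the neutrophil-like class, with 1.43 and 0.528 CPM in monocyte-like and 2.13 and 1.84 CPM in macrophage-like cells. Slc2a1, the widespread glucose transporter GLUT1, differed far less between classes, at 104 and 135 CPM in neutrophil-like, 74.4 and 91.6 CPM in monocyte-like and 57.0 and 64.4 CPM in macrophage-like cells. The lactate exporter Slc16a3 (MCT4) reached 967 and 1081 CPM in neutrophil-like cells, and the next class, nonclassical monocyte-like cells, had 374 and 506 CPM. Its counterpart Slc16a1 (MCT1), which moves lactate in both directions, showed the opposite order, with 0.270 and 0.670 CPM in neutrophil-like and 13.7 and 18.2 CPM in monocyte-like cells.

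Slc22a15, an organic zwitterion carrier, was at 115 and 107 CPM in the neutrophil-like class, 5.27-fold and 4.61-fold above the next class. Slc27a4, which helps to take up long-chain fatty acids, stood at 59.5 and 80.0 CPM there, 4.67-fold and 5.83-fold above the next class. Slc6a13, a transporter of GABA and taurine, was at 56.8 and 44.2 CPM in neutrophil-like cells. Monocyte-like cells had 0.764 and 0.422 CPM of Slc6a13 and macrophage-like cells 0.0546 and 0.384 CPM, so that these levels lay close to none. Slc35a5, of the nucleotide sugar carrier family, was at 51.8 and 49 CPM, 4.54-fold and 3.52-fold above the next class. The other 3 neutrophil markers were Slc7a11, the pyrimidine nucleotide carrier Slc25a33 (166 and 121 CPM) and the scaffold gene Slc9a3r1 (258 and 260 CPM).

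**Figure D1:**
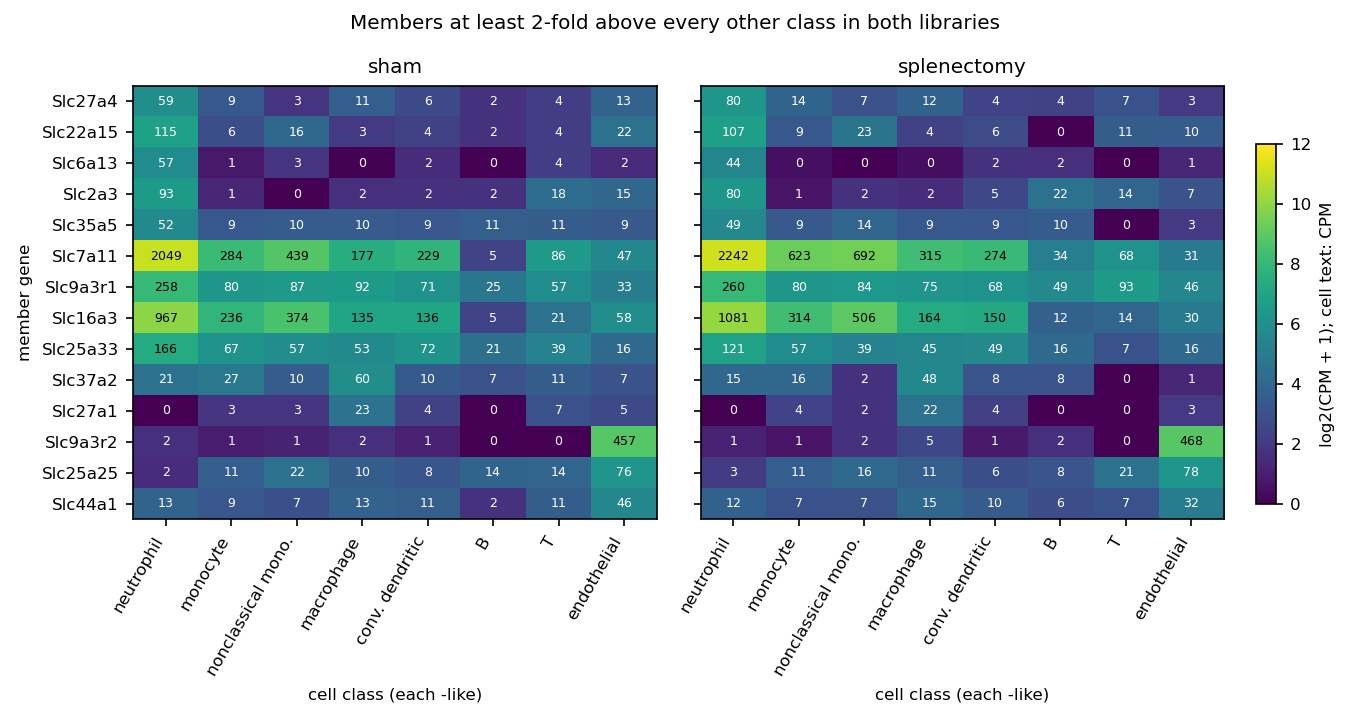
The 14 members that marked a class (vertical axis) by cell class (horizontal axis) in the sham and the splenectomy library, coloured by log2(CPM + 1) with the CPM written in each cell. Slc7a11 and Slc16a3 fill the neutrophil column at 2049 and 967 CPM in sham, while Slc9a3r2 stands in the endothelial column alone at 457 and 468 CPM.

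Macrophage-like cells were marked by Slc37a2, a sugar phosphate exchanger of the endoplasmic reticulum, at 60.2 and 48.2 CPM against 27.2 and 15.5 CPM in monocyte-like cells. Slc27a1, a fatty acid transport protein, was at 23.1 and 21.7 CPM in the macrophage-like class and had no UMI in neutrophil-like cells of either library, where exact upper limits were 0.498 and 0.617 CPM. Endothelial cell-like cells were marked by Slc9a3r2 (457 and 468 CPM, at least 42.7-fold above the next class), by Slc25a25, a mitochondrial carrier of ATP-magnesium and phosphate (76.5 and 78.3 CPM), and by the choline carrier Slc44a1 (45.5 and 32.5 CPM).

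For Slc7a11, shares of cells with a UMI gave the same order of the large classes as its CPM. Each cell was thinned to 2000 UMIs, and shallower cells were left out (178 and 86 neutrophil-like, 6 and 1 monocyte-like, 125 and 54 macrophage-like, 11 and 10 B cell-like). Slc7a11 was found in 87.2% of thinned neutrophil-like cells in sham (exact binomial interval 85.6% to 88.6%) and in 88.7% after splenectomy (86.9% to 90.3%). B cell-like cells, which should lack it, gave 1.0% (0.0253% to 5.45%) and 4.0% (1.10% to 9.93%) at median depths of 3491 and 3691.5 UMIs, against 3316.5 and 3773 UMIs in neutrophil-like cells. Monocyte-like cells gave 34.7% (31.5% to 38.1%) and 52.7% (49.1% to 56.3%) for Slc7a11, and macrophage-like cells 21.8% (19.4% to 24.2%) and 28.4% (25.4% to 31.6%). Without thinning the monocyte-like shares were 68.1% and 79.9%, the macrophage-like shares 46.7% and 56.1% and the neutrophil-like shares 89.8% and 91.0%.

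Neutrophil-like cells were then set against both other large classes. Of 133 members with 20 UMIs in neutrophil-like or monocyte-like cells of each library, 28 were at least 4-fold lower in neutrophil-like than in monocyte-like and macrophage-like cells in both libraries (21.1%, background 23.5%), and 6 were at least 4-fold higher (4.51%, background 4.43%). Both shares lay near those of all genes. By role, those lower included 7 of 20 carriers of nucleosides and nucleotide sugars, 6 of 19 metal carriers, 5 of 26 mitochondrial carriers and 4 of 24 amino acid and peptide carriers. The others were 3 of 15 ion carriers, 2 of 7 monocarboxylate and organic ion carriers and 1 of 11 fatty acid, choline and vitamin carriers. None of the 8 sugar carriers was among them. The 6 higher members were Slc2a3, Slc2a6, Slc6a13, Slc22a15, Slc27a4 and Slc35a5.

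The ADP/ATP carriers that pass ATP out of mitochondria were low in neutrophil-like cells. Slc25a4 stood at 2.70 and 3.01 CPM there, against 68.6 and 89.2 CPM in monocyte-like and 98.6 and 102 CPM in macrophage-like cells. Its close paralogue Slc25a5 stood at 117 and 97.9 CPM, against 624 and 647 CPM and 494 and 520 CPM. No source used here says how reads shared by such paralogues were counted. The mitochondrial phosphate carrier Slc25a3 differed less, at 376 and 365 CPM against 657 and 639 CPM in monocyte-like cells. The acylcarnitine carrier Slc25a20, which brings fatty acids into mitochondria, had the reverse order, with 71.5 and 69 CPM in neutrophil-like, 21.2 and 25.6 CPM in monocyte-like and 15.1 and 14.1 CPM in macrophage-like cells.

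Among amino acid carriers, Slc7a8 (LAT2, large neutral amino acids) stood at 2.16 and 1.67 CPM in neutrophil-like, 72.9 and 49.1 CPM in monocyte-like and 144 and 136 CPM in macrophage-like cells. Slc7a7, which exports cationic amino acids, stood at 3.24 and 4.02 CPM, 41 and 31.6 CPM, and 49.1 and 39.1 CPM in the same order. Both pair with the heavy chain Slc3a2, as Slc7a11 does, and Slc3a2 itself ranged only from 195 and 211 CPM in neutrophil-like to 327 and 302 CPM in macrophage-like cells. Of the metal carriers, the zinc and iron importer Slc39a14 was at 4.32 and 4.85 CPM in neutrophil-like and 54.3 and 59.7 CPM in monocyte-like cells. The zinc exporter Slc30a1 was at 0.944 and 0.670 CPM against 23.1 and 14.4 CPM. The nucleoside transporter Slc29a1 was at 0.540 and 0.167 CPM in neutrophil-like and 24.4 and 29.6 CPM in macrophage-like cells.

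**Figure D2:**
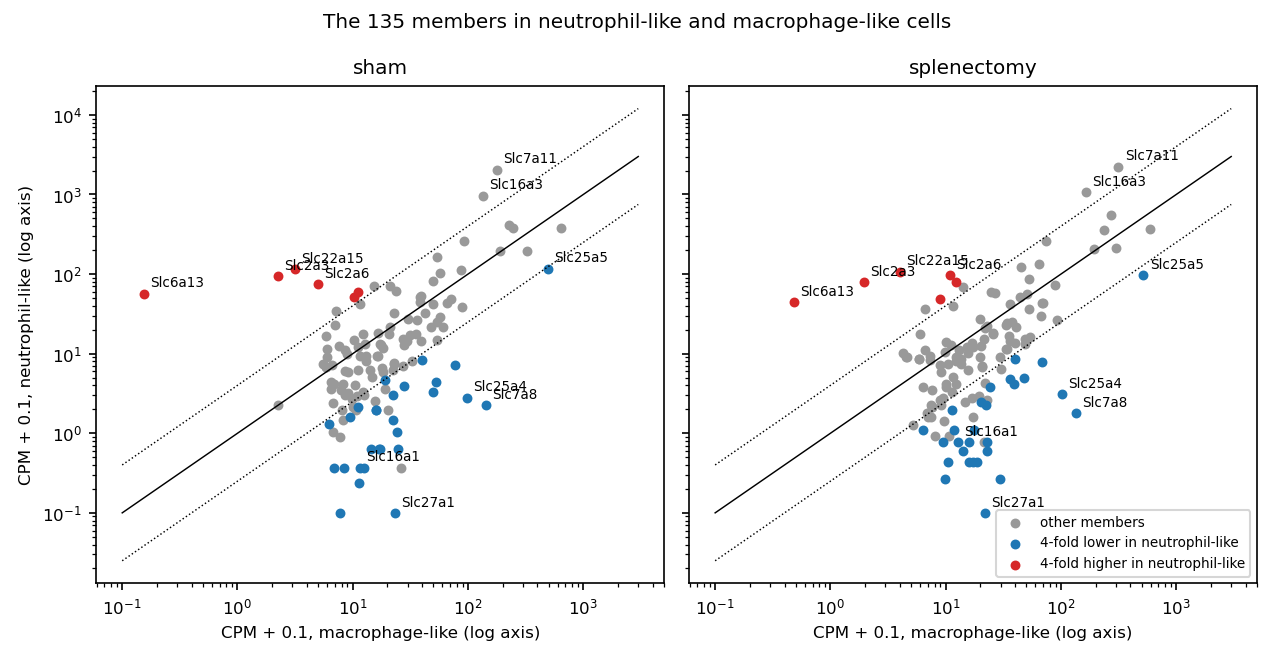
Each of the 135 members by its level in macrophage-like (horizontal) and neutrophil-like cells (vertical), both as CPM + 0.1 on log axes, in the sham and the splenectomy library. Solid line: equal levels; dotted lines: 4-fold; blue and red: the 28 and 6 members past 4-fold against both monocyte-like and macrophage-like cells in both libraries.

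Macrophage-like and monocyte-like cells differed in fewer members. At least 2-fold higher in macrophage-like cells in both libraries were 12 of 134 (8.96%, background 4.86%), and at least 2-fold higher in monocyte-like cells were 4 (2.99%, background 2.52%). The 12 included Slc48a1, which brings haem out of the lysosome (88.1 and 93.2 CPM against 26.7 and 27.8 CPM), and Slc11a2, the iron transporter DMT1 (22.1 and 22.6 CPM against 9.27 and 8.76 CPM). They also included the creatine transporter Slc6a8 (26.1 and 21.3 CPM against 2.29 and 0.739 CPM), the endosomal sodium-proton exchanger Slc9a9 (18.9 and 23 CPM against 6.40 and 7.18 CPM) and the magnesium carrier Slc41a2 (14.2 and 17.3 CPM against 3.73 and 2.96 CPM). The 4 higher in monocyte-like cells were Slc2a6, Slc22a15, Slc44a2 and Slc36a3os.

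Within a class, clusters used different carriers, and their order was the same in both libraries for the members named here, which were picked after their values were seen. Levels in this paragraph describe clusters and carry no test. In macrophage-like cells, the cluster led by Lyve1, Fcna and Timd4 held Slc9a9 at 70.2 and 78.8 CPM and Slc29a1 at 71.1 and 75 CPM. The cluster led by Gpnmb, Syngr1 and Fabp5 had 10.2 and 9.55 CPM of Slc9a9 and 13 and 13.3 CPM of Slc29a1. The concentrative nucleoside transporter Slc28a2 (56.1 and 48.05 CPM against 16.6 and 11.9 CPM) and the monocarboxylate carrier Slc16a7 (17.8 and 25.5 CPM against 8.37 and 5.76 CPM) shared this order. The Gpnmb cluster had more Slc27a1 (26.2 and 34.6 CPM against 11.2 and 12 CPM) and more Slc6a8 (29.6 and 32.1 CPM against 7.02 and 2.40 CPM), and both were among its 10 leading genes. The cluster led by Ccl24, Serpinb2 and Il6 had the highest Slc16a3 (325 and 316 CPM, against 24.3 to 154 CPM in the other macrophage-like clusters of sham).

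In neutrophil-like cells, the cluster led by Ngp, Retnlg and Ly6g, genes of granule stores and of young cells, held the highest Slc2a3 (261 and 191 CPM) and Slc27a4 (144 and 152 CPM). It held 11.3 and 6.91 CPM of Slc6a13, on 3 and 6 UMIs. The cluster led by Il23a, Csf1 and Hcar2, genes of activated cells, had 67.05 and 55.1 CPM of Slc2a3, 39.2 and 46.2 CPM of Slc27a4 and 72.5 and 67 CPM of Slc6a13. Slc6a13 thus had the opposite order to Slc2a3 and Slc27a4 across these clusters. In monocyte-like cells, the cluster led by Mgst1, Dmkn and Mmp8 held more Slc2a6 (26.7 and 32.1 CPM) and Slc44a2 (35.6 and 27.5 CPM) than the cluster led by Spon1, Aif1 and Ms4a4c (7.27 and 10.9 CPM, and 9.88 and 11.2 CPM). The latter held more Slc29a1 (19.5 and 18.5 CPM against 6.29 and 6.10 CPM).

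**Figure D3:**
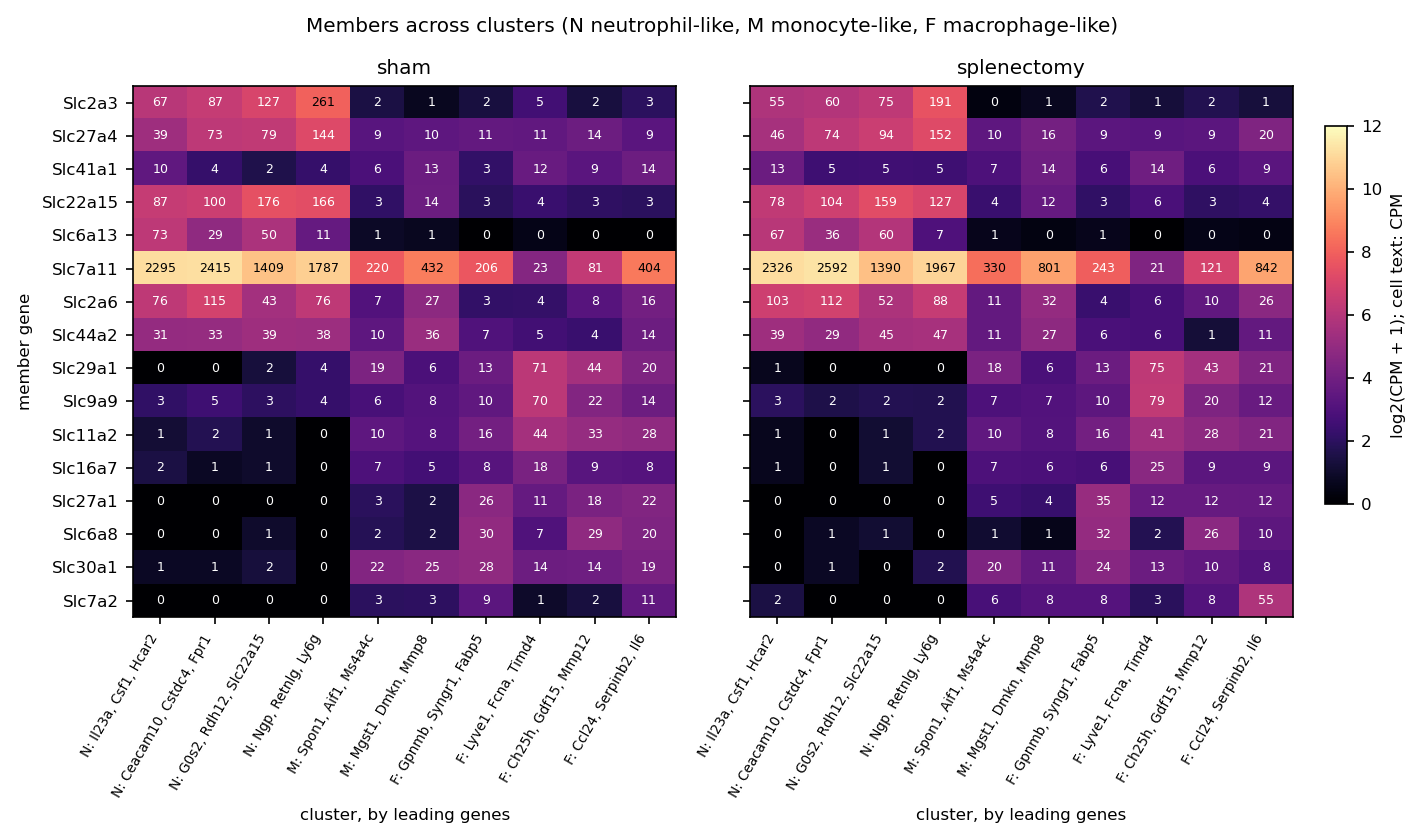
CPM of 16 members (vertical axis) in 10 clusters named by their leading genes (horizontal axis; N neutrophil-like, M monocyte-like, F macrophage-like) in both libraries, coloured by log2(CPM + 1). Slc2a3 peaks in the Ngp cluster, Slc9a9 and Slc29a1 in the Lyve1 cluster, and Slc7a2 reaches 55 CPM in the Ccl24 cluster after splenectomy.

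The libraries were compared within each class. A member was counted as different at 1.5-fold with at least 50 UMIs in the library where it was higher. In monocyte-like cells 8 of 127 members so measured were higher after splenectomy (6.30%, background 2.8%) and 6 were lower (4.72%, background 3.79%). In macrophage-like cells 5 of 133 were higher (3.76%, background 2.93%) and 1 was lower (0.752%, background 2.68%). In neutrophil-like cells none of 77 was higher (background 3.36%) and 4 were lower (5.19%, background 6.96%). Most members lay within 1.25-fold: 97 in monocyte-like, 109 in macrophage-like and 54 in neutrophil-like cells. The share of members was above that of all genes for the higher ones in monocyte-like cells, and below it for the higher ones in neutrophil-like and the lower ones in macrophage-like cells. That count of 8 was 5 with equal cluster weights, 4 with at least 500 genes per cell and 3 with thinned cells. These recounts have no share of all genes beside them. Whether the share of members stayed above that of all genes under these settings was not tested. Different clusters led the monocyte-like class in the 2 libraries: the Spon1 cluster held 575 and 287 cells and the Mgst1 cluster 255 and 471, so values within each cluster are given beside those of the class.

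Slc7a11 was higher after splenectomy in both mononuclear classes. In monocyte-like cells it went from 284 to 623 CPM (2976 and 5902 UMIs), a log2 ratio of 1.13 (interval 1.07 to 1.2). Within the Spon1 cluster the levels were 220 and 330 CPM and within the Mgst1 cluster 432 and 801 CPM, log2 ratios of 0.58 and 0.89, and with each cluster given the same weight in both libraries the ratio was 0.78. In macrophage-like cells Slc7a11 went from 177 to 315 CPM (log2 ratio 0.83, interval 0.77 to 0.90). There the ratio was 0.24 in the Gpnmb cluster, -0.15 in the Lyve1 cluster and 1.06 in the Ccl24 cluster (404 and 842 CPM), whose cells numbered 73 and 171, and with equal cluster weights it was 0.56. Nonclassical monocyte-like cells had 439 and 692 CPM, the unnamed Inhba cluster 515 and 681 CPM and neutrophil-like cells 2049 and 2242 CPM. Over 11 alternative settings the log2 ratio ranged from 0.77 to 1.39 in the monocyte-like and from 0.42 to 0.89 in the macrophage-like class, which missed 1.5-fold in 3 of them.

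Some neutrophil markers differed alongside Slc7a11. The 10 genes of that list summed to 1013 CPM in monocyte-like cells of sham and 3483 CPM after splenectomy, a 3.44-fold difference. Of the 10, 4 were past 1.5-fold higher and none was at 0. S100a8 made up 491 and 2489 CPM of this sum and S100a9 189 and 568 CPM, while Cxcr2 had 3.44 and 5.28 CPM. In macrophage-like cells the 10 genes summed to 587 and 768 CPM, also with 4 past 1.5-fold higher and none at 0. The ratio of Slc7a11 to these markers differed between the classes. Neutrophil-like cells held 0.0464 and 0.0392 UMIs of Slc7a11 per UMI of S100a8, and monocyte-like cells 0.579 and 0.25. Csf3r, the receptor for granulocyte colony-stimulating factor, was at 33.2 and 34.7 CPM in monocyte-like cells. The part of neutrophil RNA in the levels of Slc7a11, Slc2a6 and Slc27a4 in the mononuclear classes was not tested.

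Slc7a2 (CAT2), which takes up arginine, had the widest ratio in macrophage-like cells, from 7.65 to 22.8 CPM (140 and 297 UMIs, log2 ratio 1.58, interval 1.28 to 1.88). The higher level lay in the Ccl24 cluster, with 10.8 and 55 CPM (11 and 148 UMIs). The Gpnmb cluster had 9.34 and 8.11 CPM of Slc7a2 and the Lyve1 cluster 0.936 and 2.88 CPM. The 5 cells with the most held 26.4% and 25.6% of its UMIs in this class, and with equal cluster weights the ratio was 0.88. In monocyte-like cells Slc7a2 went from 3.06 to 7.18 CPM on 32 and 68 UMIs (log2 ratio 1.23, interval 0.60 to 1.89), but the ratio was -0.01 when the libraries were clustered apart and -0.46 when cells were thinned. Its relative Slc7a1 (CAT1) was at 18.3 and 19.2 CPM in monocyte-like and 15.8 and 22.1 CPM in macrophage-like cells.

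Slc2a6 (GLUT6), a hexose transporter of lysosomes, went from 13.2 to 24.1 CPM in monocyte-like cells (log2 ratio 0.87, interval 0.56 to 1.18) and from 4.92 to 10.8 CPM in macrophage-like cells (1.14, interval 0.75 to 1.54). In neutrophil-like cells, where it was highest, it stood at 74.0 and 97.1 CPM (0.39, interval 0.22 to 0.56). With equal cluster weights the ratio was 0.35 in monocyte-like cells, under the 1.5-fold line, and 0.68 in macrophage-like cells. Over the 11 alternative settings the ratio missed 1.5-fold in 5 in monocyte-like and in 1 in macrophage-like cells.

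A pair of carriers that bring amino acids into growing cells was also higher. Slc7a5 (LAT1) went from 9.08 to 17.4 CPM in monocyte-like cells (log2 ratio 0.94, interval 0.57 to 1.32), with 10.02 and 16.5 CPM in the Spon1 and 6.92 and 17.97 CPM in the Mgst1 cluster. In macrophage-like cells Slc7a5 had 8.14 and 12.1 CPM (0.58, interval 0.24 to 0.91). The glutamine carrier Slc1a5 (ASCT2) went from 28.5 to 42.8 CPM in monocyte-like cells (0.59, interval 0.37 to 0.81; under 1.5-fold in 4 of 11 alternative settings, with a low of 0.41) and from 22.7 to 33 CPM in macrophage-like cells (0.54, interval 0.34 to 0.74). Neutrophil-like cells had 7.55 and 11.2 CPM of Slc1a5 (0.57), so that all 3 large classes had about the same ratio. The other members higher in monocyte-like cells were the myo-inositol carrier Slc5a3 (2.87 and 5.59 CPM, 30 and 53 UMIs), the GDP-fucose carrier Slc35c1 (7.07 and 10.9 CPM) and Slc27a4 (8.98 and 13.7 CPM).

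Slc30a1 (ZnT1), which exports zinc across the plasma membrane, was lower after splenectomy in both mononuclear classes. It went from 23.1 to 14.4 CPM in monocyte-like cells (242 and 136 UMIs, log2 ratio -0.69, interval -1.0 to -0.38) and from 24.1 to 15.9 CPM in macrophage-like cells (441 and 207 UMIs, -0.60, interval -0.85 to -0.36). In the monocyte-like class the lower level lay in the Mgst1 cluster (25.2 and 11 CPM), while the Spon1 cluster had 22.2 and 19.9 CPM. With equal cluster weights the ratios were -0.58 and -0.45, both under the 1.5-fold line, which the ratio missed in 2 of 11 alternative settings in monocyte-like and in 5 in macrophage-like cells. The metallothioneins, zinc-binding proteins under the same factor MTF-1, had the opposite sign: Mt2 went from 16.5 to 32.7 CPM in monocyte-like and from 198 to 460 CPM in macrophage-like cells, and Mt1 from 1034 to 1255 and from 2246 to 2844 CPM.

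The other members lower in monocyte-like cells were Slc37a2, Slc26a11, Slc41a3, Slc38a7 and Slc45a4. Slc37a2 went from 27.2 to 15.5 CPM (log2 ratio -0.81, interval -1.11 to -0.52), and over 11 alternative settings the ratio ranged from -1.23 to -0.21 and missed 1.5-fold in 6. It had 33.5 and 18.5 CPM in the Spon1 and 12.9 and 13.7 CPM in the Mgst1 cluster. In macrophage-like cells Slc37a2 stood at 60.2 and 48.2 CPM. The magnesium carrier Slc41a3 (8.60 and 5.38 CPM), the lysosomal glutamine exporter Slc38a7 (8.41 and 5.28 CPM) and the sulfate and chloride carrier Slc26a11 (5.35 and 3.17 CPM, 56 and 30 UMIs) rested on few UMIs, and over 11 alternative settings Slc41a3 missed 1.5-fold in 5 and Slc38a7 in 6. For Slc26a11 the ratio was -0.76, and 1.12 when cells were thinned.

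**Figure D4:**
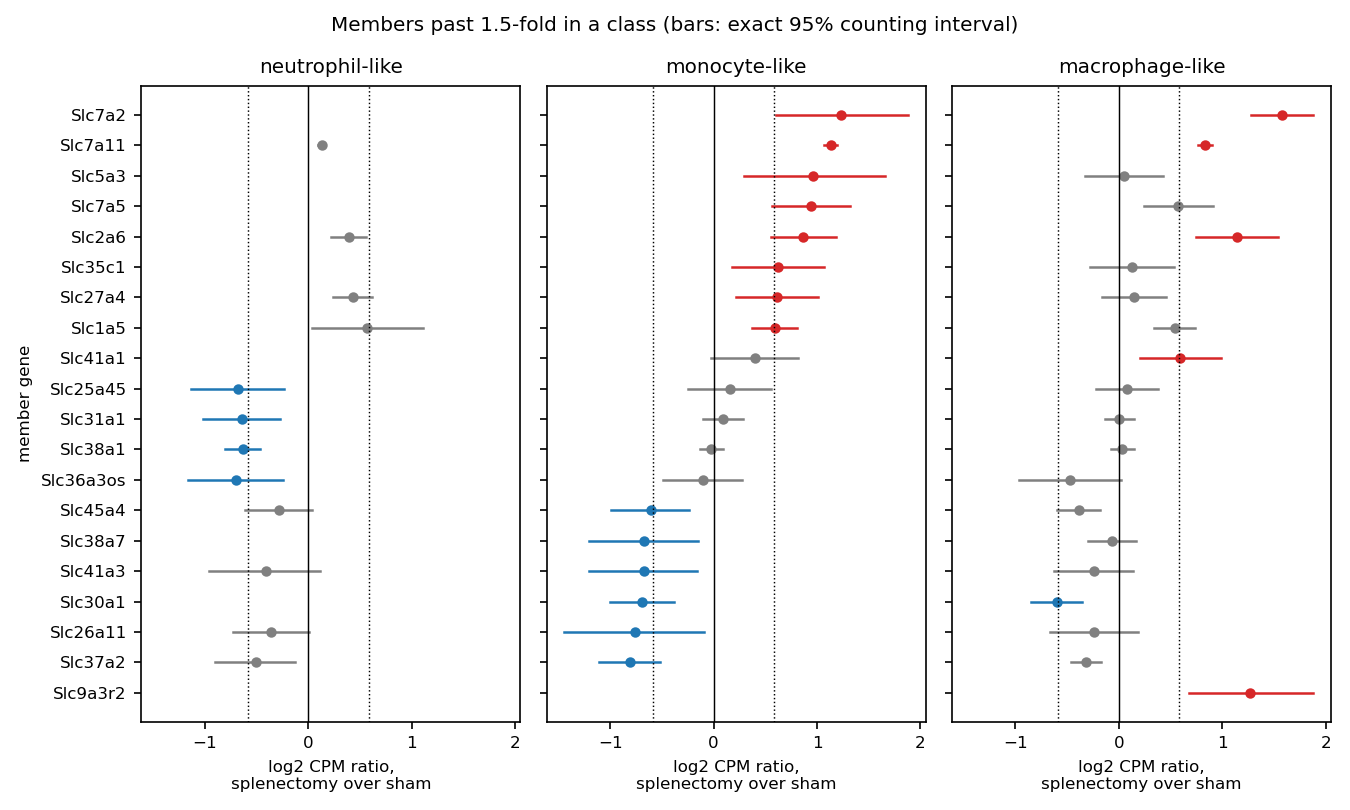
log2 CPM ratio of splenectomy over sham (horizontal axis) for the 20 members past 1.5-fold in at least 1 of the 3 large classes, with exact 95% counting intervals; dotted lines mark 1.5-fold, red and blue the members past it, and members under 50 UMIs in a class are not drawn there. Slc7a11 has narrow intervals at 1.13 in monocyte-like and 0.83 in macrophage-like cells, and Slc30a1 lies on the other side in both.

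In macrophage-like cells the remaining 2 higher members were Slc41a1 and Slc9a3r2. The magnesium carrier Slc41a1 went from 5.79 to 8.75 CPM (log2 ratio 0.60, interval 0.20 to 0.99, and 0.28 with equal cluster weights). It missed 1.5-fold in 9 of 11 alternative settings, with a low of 0.10. Slc9a3r2 went from 2.13 to 5.14 CPM on 39 and 67 UMIs. It marked endothelial cell-like cells at 457 and 468 CPM, and the 8 endothelial markers summed to 33.3 and 46.6 CPM in macrophage-like cells, with 3 past 1.5-fold higher, 1 lower and none at 0. Within the macrophage-like class, Slc9a3r2 was highest in the Lyve1 cluster, 4.46-fold and 4.23-fold above the next macrophage-like cluster compared. That cluster held 206 of 1302 and 173 of 892 macrophage-like cells. The part of endothelial RNA and that of the Lyve1 cluster in the Slc9a3r2 result were not tested.

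The 4 members lower in neutrophil-like cells were the glutamine carrier Slc38a1, the copper importer Slc31a1, the mitochondrial carrier Slc25a45 and the opposite-strand transcript Slc36a3os. Slc38a1 went from 112 to 72.3 CPM (log2 ratio -0.64, interval -0.81 to -0.47). It stood at 143 and 132 CPM in the Il23a cluster (1072 and 433 cells) and at 53.8 and 50.3 CPM in the cluster led by Ceacam10, Cstdc4 and Fpr1 (317 and 596 cells), and with equal cluster weights the ratio was -0.19. Slc31a1 went from 24.8 to 15.9 CPM (-0.64, interval -1.02 to -0.28). The cluster led by G0s2, Rdh12 and Slc22a15 had 37.6 and 10.8 CPM of Slc31a1 (73 and 9 UMIs), while the Il23a cluster had 22.9 and 23.7 CPM. Slc25a45 had 17.4 and 10.9 CPM and Slc36a3os 16.6 and 10.2 CPM, the latter with a ratio of -0.22 at equal cluster weights. No source used here says whether reads were counted by strand, so Slc36a3os cannot be told apart from its opposite gene.

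By role, with members counted from 20 UMIs upward, the mitochondrial carriers stayed close to all genes in the mononuclear classes. Of 26, none passed 1.5-fold in monocyte-like cells (background 4.2% higher and 5.34% lower) or macrophage-like cells (background 4.68% and 3.83%), and their median log2 ratios were -0.01 and -0.02, against -0.00 and 0.01 over all genes. In neutrophil-like cells 3 of 21 were lower and none higher (median -0.12). Their widest ratios in monocyte-like cells were 0.38 for Slc25a4 and -0.49 for the glutamate carrier Slc25a22. The 7 monocarboxylate and organic ion carriers also had none past 1.5-fold in either mononuclear class, with medians of 0.28 and 0.12. Amino acid and peptide carriers had 4 higher and 2 lower of 23 in monocyte-like cells (median 0.07), from Slc7a2 at 1.23 to Slc6a8 at -1.63, and 2 higher and none lower of 23 in macrophage-like cells (median 0.03). Slc6a8 held fewer than 50 UMIs in monocyte-like cells of each library, too few for the member counts given above. Metal carriers had 2 lower and none higher of 19 in monocyte-like cells (median 0.07). In neutrophil-like cells 12 of 104 members were lower and 2 higher (background 9.93% and 5.16%), with a median of -0.06 against -0.08 over all genes.

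The 5 members that follow stayed under the 1.5-fold line. Slc6a6, the taurine transporter, was at 195 and 204 CPM in neutrophil-like, 185 and 180 CPM in monocyte-like and 190.1 and 192 CPM in macrophage-like cells, so that neither class nor library moved it by much. Slc15a3, a lysosomal carrier of histidine and peptides, went from 419 to 559 CPM in neutrophil-like cells (log2 ratio 0.42, interval 0.34 to 0.49), and from 242 to 295 and from 225 to 274 CPM in monocyte-like and macrophage-like cells. Slc25a37 (mitoferrin, which brings iron into mitochondria) was at 61.5 and 57.2 CPM in neutrophil-like cells and at 18.1 and 18.4 CPM in monocyte-like cells. The phosphate carrier Slc20a1 was at 38.1 and 50.5 CPM in macrophage-like cells (0.41, interval 0.25 to 0.56), and the copper carrier Slc31a2 at 38.2 and 44.3 CPM there (0.21, interval 0.05 to 0.37).

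Lists of other genes were read in the same way. Of 19 carriers and partners without an Slc symbol, none of 15 measured in monocyte-like and none of 17 in macrophage-like cells passed 1.5-fold. Among them Bsg, the chaperone that brings Slc16a3 to the membrane, had 257 and 264 CPM in monocyte-like cells. Of the list of NRF2 and its targets, which includes genes of glutathione synthesis, 1 of 9 was higher in monocyte-like cells (Gclm, 32.0 and 52.5 CPM) and 1 of 9 in macrophage-like cells (Osgin1, 3.93 and 7.37 CPM), with medians of 0.30 and 0.31. Of the ATF4 list, 1 of 6 was higher in monocyte-like cells, Asns, an asparagine synthetase, at 2.01 and 3.59 CPM, with a median of -0.06. Of the HIF-1 list 3 of 9 were higher and none lower in monocyte-like cells (median 0.11), none passed in macrophage-like cells (median 0.21), and 1 of 9 was higher and 2 were lower in neutrophil-like cells. Over all genes at 20 UMIs, 4.2% were higher in monocyte-like, 4.68% in macrophage-like and 5.16% in neutrophil-like cells.

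**Figure D5:**
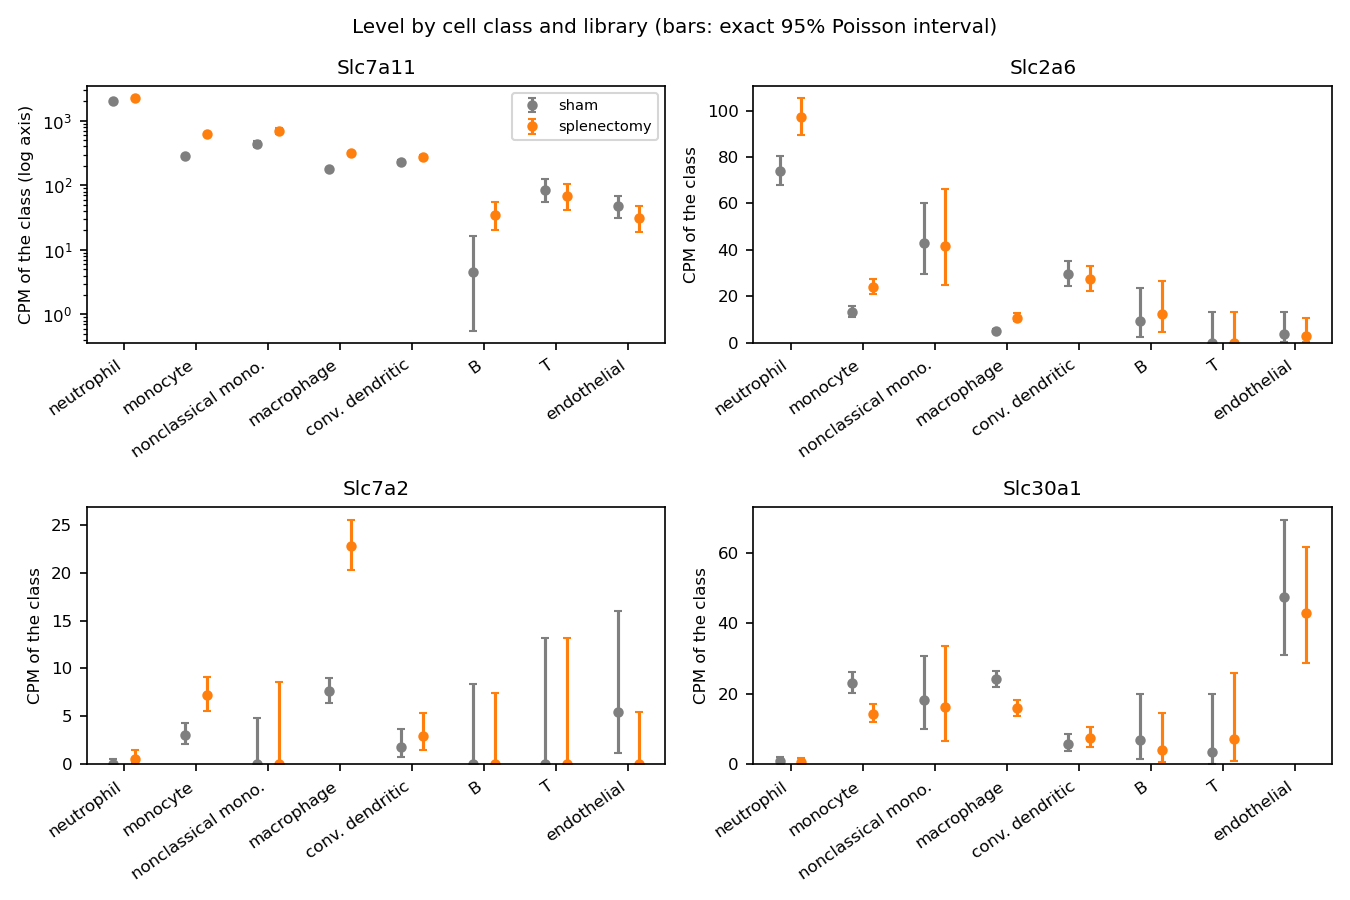
Levels of Slc7a11 (log axis), Slc2a6, Slc7a2 and Slc30a1 in CPM (vertical axes) by cell class (horizontal axes) in sham (grey) and splenectomy (orange), with exact 95% Poisson intervals. The libraries separate in monocyte-like and macrophage-like cells. They also do so in neutrophil-like cells for Slc7a11 (2049 and 2242 CPM) and Slc2a6 (74.0 and 97.1 CPM), and in nonclassical monocyte-like cells for Slc7a11. The small classes have wide intervals.

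Conventional dendritic cell-like cells had 3 of 72 members higher (4.17%, background 3.07%) and 1 lower (1.39%, background 3.1%). The higher ones were Slc41a1, Slc4a2 and Slc39a6, and the lower one was the lysosomal nucleoside carrier Slc29a3, at 48.9 and 30.8 CPM. In the unnamed Inhba cluster 6 of 118 were higher (5.08%, background 2.66%), among them Slc7a5 (9.71 and 17.3 CPM) and Slc2a6 (6.10 and 10.9 CPM), and 3 were lower (2.54%, background 2.2%), among them Slc27a1 (11.52 and 4.84 CPM).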

How the data were processed

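The UMI counts of both libraries (10x Chromium 3′ v3 kits) were used as deposited. They were made with Cell Ranger 5.0.0, per the file headers, and the submitters' processing notes name STAR and mm10. No source used here names the annotation. Members, marker lists and gene lists were chosen with earlier results of these data known. Cells under 200 genes or over 20% mitochondrial UMIs were left out, and simulated-doublet scores removed 302 and 200 cells, at 8 per 1000 cells for each 1000 cells. Clustering used 2000 variable genes without solute carrier, state and technical genes, 30 principal components, 15 neighbours and Leiden resolution 1 with seed 7. A class name needed at least 3 markers in 25% of cells at 1.5-fold. It was refused where another class had more markers among the 10 leading genes, and to shallow clusters with no marker of their own there. Counts were summed by class and library. Ratios have exact 95% intervals for 2 Poisson counts, which cover counting error only, and a count of 0 was replaced by 3. The depth is that of the class sums, from 280472 UMIs (T cell-like) to 18301703 (macrophage-like). Chosen for naming were, in each large class, the 5 highest and 5 lowest members past 1.5-fold, up to 5 markers of a class, 20 set genes and the extremes of role groups. Of these, the set genes Slc4a7 and Slc39a1 and some role extremes are not described above. Other named members (the 4-fold and cluster comparisons) were chosen after their values were seen. Cells within 0.25 of the class limit numbered 1206 and 962. Gene positions are from GENCODE and promoters from RefSeq. The ratio, its interval, the fold rule and the marking rule were tried on simulated Poisson counts, which hold no variation between cells or animals. The filters, doublet scores, clustering and class naming were not tried in this way. Alternatives covered clustering, doublets, filters, scaling, cluster weights, thinning and thresholds, and leaving out clusters with a median under 2000 UMIs was added after the data were seen. Clusters came from leidenalg 0.10.2 with igraph 0.11.9 and scikit-learn 1.9.0, intervals from scipy 1.17.1, sums from pandas 2.3.3 with numpy 2.4.6, and figures from matplotlib 3.10.9, under Python 3.11.15.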

Additional observations from a re-analysis of the deposited data

How the results depend on the processing

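Of 704 values of named ratios under other settings, the sign changed in 49 values among the 43 ratios under 1.5-fold and 3 among the 21 past it. Those 3 were Slc7a2 in monocyte-like cells at -0.00836 with the libraries clustered apart and -0.46 with cells thinned to 2000 UMIs, and Slc26a11 in monocyte-like cells at 1.12 with cells thinned. The counts of members past 1.5-fold moved as well. For the 8 higher in monocyte-like cells, the count was 5 with solute carrier and state genes kept for clustering, with no doublets removed and with each cluster at the same weight in both libraries, 4 with at least 500 genes per cell and with the class taken from marker UMIs of single cells, 3 with thinned cells and 2 at 2-fold. For the 6 lower there, it was 2 at resolution 0.5, with 500 genes per cell and with thinned cells, 12 with the libraries clustered apart, 1 with no doublets removed and with the same cluster weights, and 0 at 2-fold. For the 5 higher in macrophage-like cells, it was 1 with the libraries clustered apart and 3 with the same cluster weights and at 2-fold. For the 1 lower there, it was 3 with the libraries clustered apart, 2 with thinned cells and 0 at resolution 2, with the class from single cells, with the same cluster weights, at 2-fold and without clusters under 2000 UMIs. In neutrophil-like cells the 0 higher became 2 with no doublets removed and with 20 UMIs, 1 with median-of-ratios scaling and 3 with the same cluster weights and with thinned cells, and the 4 lower became 1 with the same cluster weights, 12 with 20 UMIs and 0 at 2-fold. The 14 members that marked a class became 9 with thinned cells and 29 at 1.5-fold. These counts are given without the share of all genes under the same setting, which a setting can move too. The causes were not tested. The scaling moved the median of all genes by less than 0.1 on the log2 scale. The minimum of 20 UMIs was already part of the marking rule, so that alternative was not run for it. No paired analysis was possible because each group holds 1 library. Members of low level and classes of few cells are limited by counting, and no setting replaces libraries of further animals.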

Other observations

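A pair of shallow clusters that stayed unnamed held unusual levels of some carriers. A cluster of 96 and 73 cells led by Il1f9, Csf1 and Osgin1, with a median of 1677 UMIs and 9 neutrophil markers past the limits but none among its 10 leading genes, held Slc26a11 at 233 and 227 CPM, on 45 and 38 UMIs, against 22.5 and 17.6 CPM in neutrophil-like cells. Its Slc7a11 level was 3264 and 3504 CPM. A cluster of 367 and 329 cells was led by Ccnb1ip1, Rmrp and Hist1h1e, with a median of 1562 UMIs. Its best-scoring class was the erythroid cell, none of whose markers passed the limits, and markers of other classes were not counted. This cluster held the amino acid carriers Slc7a5 at 139 and 235 CPM and Slc1a5 at 105 and 171 CPM. Monocyte-like cells had 9.08 and 17.4 CPM of Slc7a5 and 28.5 and 42.8 CPM of Slc1a5. What these shallow barcodes are was not tested.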
